A study of Mus musculus with 4 samples.

Results

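The genes described here are 9 protein-coding genes whose mRNAs are known substrates of adenosine-to-inosine recoding: Azin1, Blcap, Cog3, Copa, Cyfip2, Flna, Igfbp7, Mfn1 and Tmem63b. They were selected by symbol for what is known of their editing, with earlier results of these data known, and each matched 1 of the 55450 genes in the authors' deposited table. All 9 were among the 29383 genes with a fold change. Enzymes of the ADAR family deaminate adenosine to inosine in double-stranded RNA, and the ribosome reads inosine as guanosine, so an edited codon can specify another amino acid. In many recoded mRNAs the double strand forms when the exon pairs with a nearby stretch of the same pre-mRNA, often in an intron. Recoding of Flna, Cyfip2, Copa and Cog3 is attributed mainly to ADAR2, the product of Adarb1, and that of Azin1 mainly to ADAR1, the product of Adar.

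The study measured ribosome-depleted RNA of mouse Th17 cells, helper T cells that carry CD4 and secrete IL-17. There were 4 cultures, 2 given a PSIN retroviral vector with a guide against Adarb1 (sgAdarb1) and 2 given the empty PSIN vector, and per the series' design text each of 2 wildtype donor mice supplied both arms. Per the genotype tag all cultures carried a Cas9 transgene; how this fits with donors called wildtype in the design text is not stated in the sources used here. Naive CD4+ T cells from mice 8 to 12 weeks old were stimulated with antibodies to CD3ε (0.25 µg/mL) and CD28 (1 µg/mL), received retrovirus 24 h later, and were then held for 72 h with TGF-β at 0.3 ng/mL and IL-6 at 20 ng/mL. The control vector had no guide, so effects of a Cas9 cut and of the loss of Adarb1 cannot be told apart, and whether transduced cells were selected is not stated in the sources used here. The treatment tag goes against the title in 2 of the 4 samples, giving both cultures of replicate 1 as control and both of replicate 2 as knockdown. The titles, which match the design text, are used here, but the grouping behind the deposited fold changes is the authors' own and could not be checked. Fold changes are read as sgAdarb1 over empty vector, as the design text orders them; the table names no numerator.

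The coding sequences around the recoded codons are shown because they hold the adenosines that ADAR enzymes edit in these mRNAs. The stretch that pairs with each to form the double strand was not identified here. The residues known to be recoded are background knowledge, not a measurement here. For each gene the longest coding sequence in GENCODE M21 (mm10) whose listed codons encode the known residues was used, so the match of residues was set by this choice. In each codon a change of 1 adenosine to guanosine gave the known edited residue. There were 12 such codons in the 9 genes: 3 in Blcap, 2 in Igfbp7 and 1 in each of the others. The sequences read 5′ to 3′ along the mRNA, within 1 exon each, with the recoded codons in capitals, and are given for 8 of the genes.
Flna (glutamine to arginine, exon 42 of 47, chrX:74226861-74226878, minus strand): actgtttctagtcttCAG
Cyfip2 (lysine to glutamate, exon 10 of 31, chr11:46272626-46272658, minus strand): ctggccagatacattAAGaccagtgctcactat
Copa (isoleucine to valine, exon 6 of 33, chr1:172092333-172092354, plus strand): gtccgcgtttgggatATTtctg
Cog3 (isoleucine to valine, exon 17 of 23, chr14:75719702-75719734, minus strand): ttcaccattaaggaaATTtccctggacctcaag
Tmem63b (glutamine to arginine, exon 20 of 24, chr17:45662933-45662965, minus strand): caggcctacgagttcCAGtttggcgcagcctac
Mfn1 (isoleucine to valine, exon 10 of 18, chr3:32561465-32561488, plus strand): gagtgtATCtcgcagtcagcagtg
Igfbp7 (arginine to glycine and lysine to arginine, exon 1 of 6, chr5:77407715-77407798, minus strand): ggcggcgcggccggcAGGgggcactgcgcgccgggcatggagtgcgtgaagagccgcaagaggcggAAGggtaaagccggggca
Blcap (tyrosine to cysteine, glutamine to arginine and lysine to arginine, exon 2 of 2, chr2:157558094-157558153, minus strand): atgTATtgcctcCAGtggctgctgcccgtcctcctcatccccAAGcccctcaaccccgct

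The edited adenosine was the 1st base of the codon in 6 cases and the 2nd base in 6. In Flna it stood 1 base before the end of its exon, and in Copa 6 bases before. The Blcap codons lie at the very start of the coding sequence, beginning with the codon after the start codon. A thymidine (uridine in the RNA) preceded the edited adenosine in 4 of 12 codons, an adenosine in 4, a cytidine in 4 and a guanosine in 0. Over all 4973 adenosines of these 9 coding sequences whose change to guanosine alters the amino acid, 12.7% followed a thymidine. A guanosine followed the edited adenosine in 7 of 12 codons, against 26.7% of those 4973 adenosines. These shares are given with no test, since the codons were taken because they are edited. How often each codon was edited in either group was not analysed here, and the values that follow are amounts of RNA per gene.

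All 9 substrates were expressed in the cultures, over a wide range. The level is the mean over libraries of the counts after DESeq2 scaling, here called the mean normalized count, and levels of different genes are compared per kb of merged exons. Values per culture were not used, because the columns that hold them carry names that match no sample label. Cyfip2, a subunit of the actin-regulating WAVE complex, had 2023 mean normalized counts per kb, above 97.5% of the 11953 protein-coding genes with a mean of at least 10. Flna, which encodes the actin cross-linker filamin A, had 1697 per kb, above 96.9% of them. Copa, a subunit of the COPI coat that carries cargo within the Golgi and back to the endoplasmic reticulum, followed at 634 per kb.

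The others were at moderate levels. Igfbp7, a secreted protein that binds insulin-like growth factors, had 321 mean normalized counts per kb, and Azin1, an inhibitor of the antizymes that mark ornithine decarboxylase for degradation, had 309. Cog3, a subunit of the Golgi tethering complex COG, had 179 per kb and Mfn1, a GTPase that fuses mitochondrial outer membranes, had 136. Blcap, a small protein linked to growth control, and Tmem63b, a mechanically and osmotically gated ion channel, were lowest at 80.5 and 72.1 per kb, higher than 44.8% and 42.0% of protein-coding genes. The highest and lowest substrates differed 28.1-fold per kb. The deaminases lay within this range, Adar at 324.8 and Adarb1 at 189 mean normalized counts per kb, while Adarb2, a relative expressed mainly in brain, had 0.494.

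Length per gene affects this order. The merged exons of Copa span 9.43 kb and its longest transcript 4.62 kb; per kb of the longest transcript Copa had 1293 mean normalized counts. On that scale Azin1 (397) stood above Igfbp7 (323), and the order of the other substrates was the same. Neighbours in the order were not tested for a difference, since values per culture were not used.

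**Figure D1:**
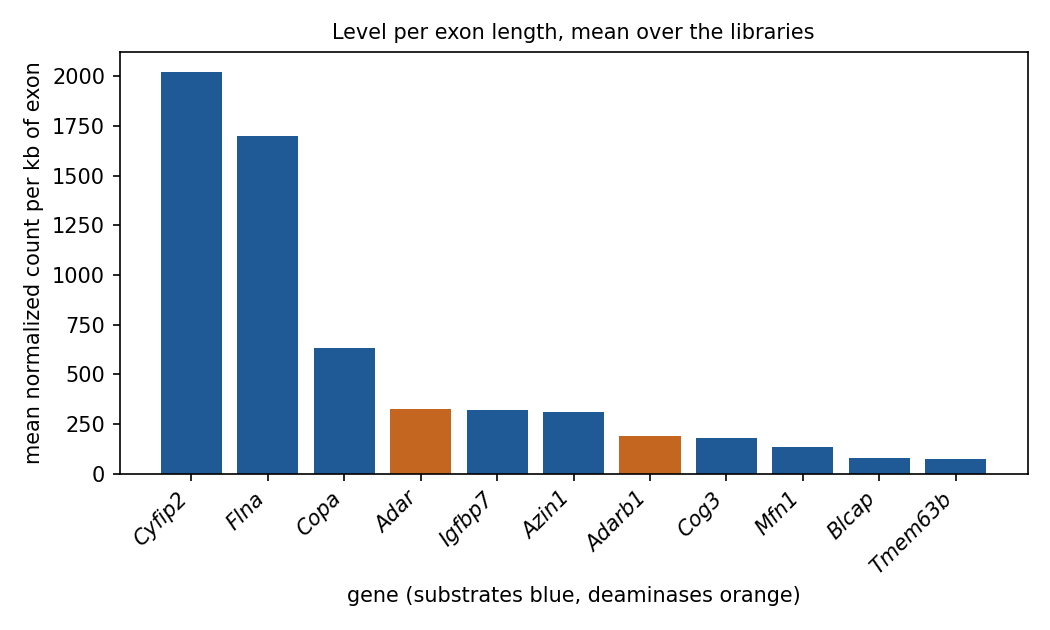
Bars show the level of each gene as mean normalized counts per kb of merged exons, with the substrates in blue and Adar and Adarb1 in orange. Cyfip2 and Flna stand far above the rest at 2023 and 1697, and Tmem63b is lowest at 72.1; there are no error bars because values per culture were not used.

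The comparison between groups asked whether the amounts of these mRNAs differ when Th17 cells receive the Adarb1 guide. None of the 9 passed: 0 of 9 had an adjusted p below 0.05 per the authors' deposited table (DESeq2), where 0 of all 29383 genes (0%) did, and 0 of 9 had an unadjusted p below 0.05, against 61 of 29383 (0.208%). The estimates lay between -0.04 and 0.18 on the log2 scale, 4 above 0 and 5 below it, with a median of -0.01. Of all 14547 genes with a mean of at least 10, 50.5% were above 0 and the median was 0.00. Of the substrates 8 of 9 lay within 1 standard error (SE) of 0, as did 91.8% of the 14547 genes. The substrates' count is therefore close to that of genes in general. Over all 10680 genes with a mean of at least 50, the standard deviation (SD) of the log2 fold changes was 0.163, below their median SE of 0.195. The deposited SEs of these genes are thus wide for the scatter of their values. The intervals and the sizes needed to pass given below carry this width. In bulk RNA, fewer cells of a type and less RNA per cell cannot be told apart.

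Of the cytoskeletal substrates, Flna (chromosome X, 74223461 to 74249820) was at a log2 fold change of 0.10 ± 0.08 (SE) with a mean normalized count of 15948 per the authors' deposited table. Its unadjusted p of 0.200 was the smallest among the 9, with an adjusted p of 1.00 per the authors' deposited table (DESeq2). The 95% interval computed from that SE ran from -0.05 to 0.26, which is 0.963-fold to 1.20-fold. Flna was the only member more than 1 SE from 0. Cyfip2 (chromosome 11, 46193850 to 46312859) was at 0.05 ± 0.08 with a mean of 14369 per the authors' deposited table, and its interval ran from 0.927-fold to 1.16-fold. These were the most precisely measured substrates, and for both the interval leaves out a change of 1.3-fold.

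The relatives of these genes showed the same absence of calls; they, and the partner lists in the next paragraphs, were chosen by complex or family after the substrates' values were seen. Flnc, the muscle filamin, had 0.760 mean normalized counts per kb, against 1697 for Flna. Among the 10 WAVE complex genes 0 passed. Cyfip2 was the main CYFIP form at 2023 mean normalized counts per kb, against 137 for Cyfip1. The actin-nucleating subunit Wasf2 (0.09 ± 0.10 per the authors' deposited table) and the blood cell subunit Nckap1l (0.09 ± 0.10 per the authors' deposited table) had 791 and 760 mean normalized counts per kb.

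Of the trafficking substrates, Copa (chromosome 1, 172082529 to 172122330) was at -0.01 ± 0.09 with a mean of 5976 per the authors' deposited table (unadjusted p = 0.934), the estimate nearest to 0 of the 9. Its interval ran from 0.876-fold to 1.13-fold. Of the 9 COPI coat genes 0 passed, with Copb2 at 0.05 ± 0.10 and Arcn1 at -0.06 ± 0.10 per the authors' deposited table. Cog3 (chromosome 14, 75702350 to 75754517) was at -0.04 ± 0.16 with a mean of 927 per the authors' deposited table, an estimate that turned to 0.0008 when a trend on GC content and length was removed. Its interval ran from 0.783-fold to 1.20-fold. The 8 COG subunits ranged from -0.08 to 0.10 in log2 fold change and 0 passed. Their levels ran from 50.9 (Cog7) to 217 (Cog5) mean normalized counts per kb, with Cog3 at 179.

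Mfn1 (chromosome 3, 32529465 to 32579239) was at -0.03 ± 0.16 with a mean of 829 per the authors' deposited table, and its interval ran from 0.782-fold to 1.22-fold. It was the less abundant mitofusin, with 136 mean normalized counts per kb against 415 for Mfn2. Of 6 genes of mitochondrial fusion and fission 0 passed, the farthest from 0 being the fission GTPase Dnm1l at -0.14 ± 0.14 per the authors' deposited table. Azin1 (chromosome 15, 38487427 to 38519266) was at -0.04 ± 0.13 with a mean of 1932 per the authors' deposited table, and turned to 0.04 when the trend on GC content and length was removed. Its interval ran from 0.814-fold to 1.16-fold. Ornithine decarboxylase itself, Odc1, the enzyme that Azin1 protects, was far more abundant at 5103 mean normalized counts per kb and lay at 0.09 ± 0.08 per the authors' deposited table. Of 8 genes of polyamine control 0 passed.

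The remaining 3 substrates had the lowest counts and the widest intervals. Igfbp7 (chromosome 5, 77349240 to 77408041) had the highest estimate of the 9, 0.18 ± 0.24 at a mean of 388 per the authors' deposited table (unadjusted p = 0.460), and its interval ran from 0.816-fold to 1.57-fold. Blcap (chromosome 2, 157556362 to 157571274) was at 0.10 ± 0.28 with a mean of 245 per the authors' deposited table, with an interval from 0.731-fold to 1.57-fold. Tmem63b (chromosome 17, 45660171 to 45686905) was at -0.03 ± 0.23 with a mean of 367.4 per the authors' deposited table, with an interval from 0.713-fold to 1.35-fold. For these genes a change of 1.3-fold in the positive direction lies within the interval and was not detectable. Among the related TMEM63 channels Tmem63a had 41.5 and Tmem63c 0.474 mean normalized counts per kb, below Tmem63b. Of the 7 IGF binding protein genes 3 had a mean of at least 10, and Igfbp4 (237 per kb) came after Igfbp7 (321 per kb).

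**Figure D2:**
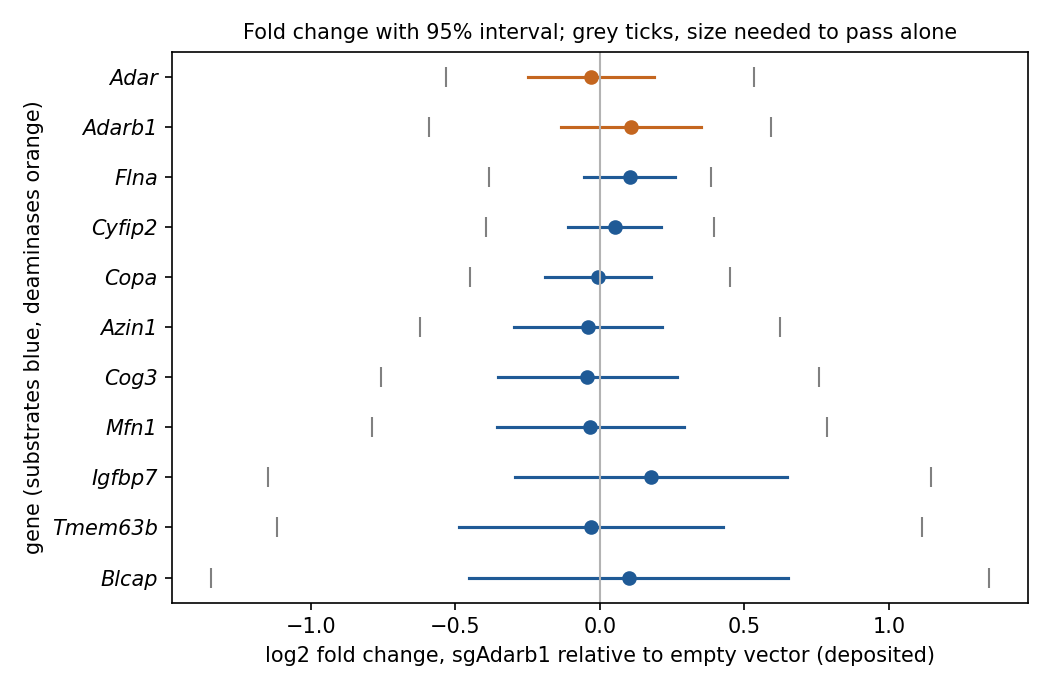
Points show the deposited log2 fold change of sgAdarb1 relative to empty vector, and lines its 95% interval, for the substrates (blue) in order of mean normalized count and for Adar and Adarb1 (orange). Every interval crosses 0; grey ticks mark the size each gene would have needed to pass alone, from 0.38 for Flna to 1.34 for Blcap (log2).

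The precision of each value followed its count. The SE per the authors' deposited table was 0.08 for Flna and 0.28 for Blcap, and among these genes' 100 neighbours in mean on either side the median SE was 0.08 and 0.28 as well. For all 9 substrates the ratio of the SE to that of genes of like mean lay between 0.976 (Flna) and 1.06 (Azin1). To pass as the only gene, a gene needed a Wald statistic, the log2 fold change divided by its SE, of 4.79. That corresponds to 1.31-fold for Flna and Cyfip2 alike, 1.37-fold for Copa, 1.54-fold for Azin1, 1.69-fold for Cog3 and 1.73-fold for Mfn1. It corresponds to 2.17-fold for Tmem63b, 2.21-fold for Igfbp7 and 2.54-fold for Blcap. The spread of the 9 log2 fold changes (SD 0.08 across genes) was smaller than their median SE of 0.16. The same held for all 10680 genes with a mean of at least 50 (SD 0.163, median SE 0.195). This relation is therefore a trait of the whole set of values and no result about the substrates.

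**Figure D3:**
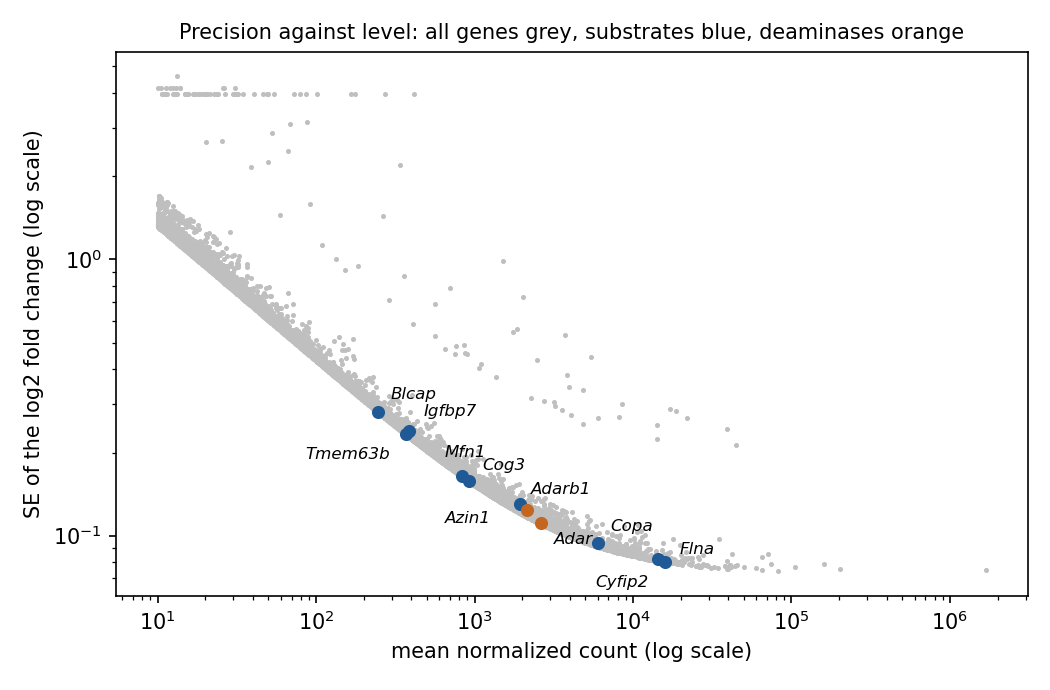
Each grey point is a gene with a mean of at least 10, plotted as the SE of its log2 fold change against its mean normalized count, both on log scales. The substrates (blue) and Adar and Adarb1 (orange) lie on the main band, from 0.28 for Blcap down to 0.08 for Flna, and none is among the genes with an SE far above that band.

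**Figure D4:**
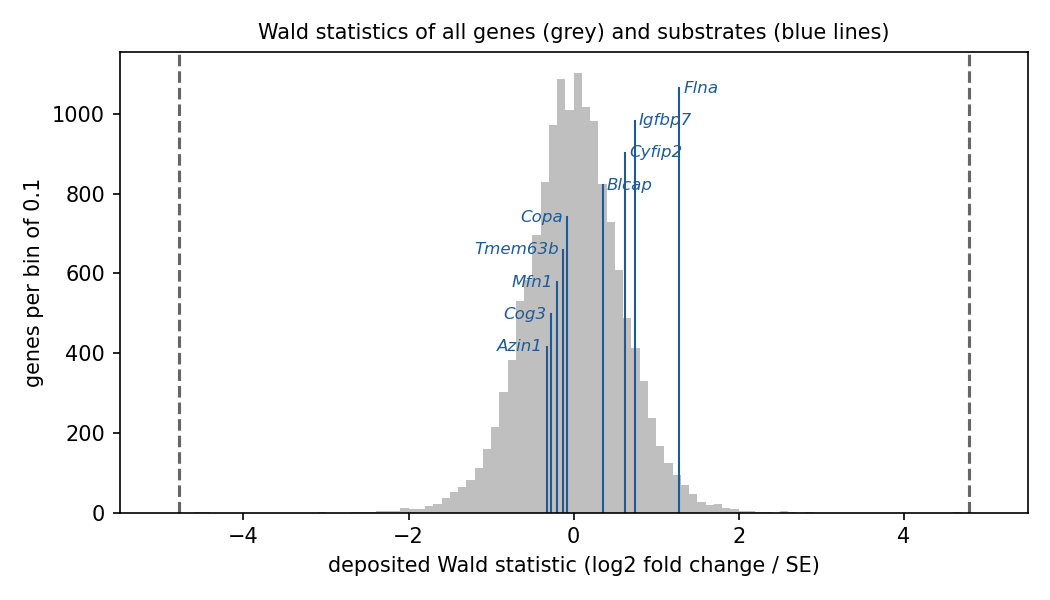
The histogram counts genes with a mean of at least 10 by deposited Wald statistic in bins of 0.1, blue lines mark the substrates, and dashed lines mark the 4.79 needed for a single gene to pass. The substrates lie between -0.32 (Azin1) and 1.28 (Flna), within the bulk of the distribution.

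Some substrates share their position with other annotated genes, and whether counting used strand is not stated in the sources used here. The 3′ end of Igfbp7 overlaps 85 bases of exon with Polr2b, an RNA polymerase II subunit gene on the opposite strand with a mean of 2340 per the authors' deposited table. Copa shares 195 exonic bases with Ncstn on the opposite strand (mean of 1354 per the authors' deposited table), and its recoded codon lies within an exon of the antisense gene Gm37756, whose mean was 4.72 per the authors' deposited table. Tmem63b shares 106 exonic bases with Mrpl14 (mean of 169 per the authors' deposited table). Nnat lies inside Blcap and Fndc9 inside Cyfip2, each on the opposite strand with 0 shared exonic bases. Polr2b and Ncstn stood at -0.02 ± 0.11 and -0.01 ± 0.14 per the authors' deposited table. The part of such reads in the substrates' values was not tested. Flna and Mfn1 overlapped no annotated gene.

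The enzymes that edit these mRNAs did not pass either. The targeted gene, Adarb1, was at 0.11 ± 0.12 per the authors' deposited table, an interval from 0.911-fold to 1.27-fold. A Cas9 cut need not lower the mRNA, so this value does not check the labels, and ADAR2 protein was not measured in these data. Adar was at -0.03 ± 0.11 per the authors' deposited table. In a list of 13 ADAR enzymes, regulators and transport factors 0 passed, with 3 above and 9 below 0 among the 12 with a mean of at least 10 and a median of -0.04, against 50.5% of all genes above 0. The highest by mean count included Dhx9, a helicase that unwinds double-stranded RNA, at -0.16 ± 0.09, and Tnpo1, an import receptor of ADAR1, at -0.06 ± 0.10 per the authors' deposited table. Zfr, an RNA-binding partner of ADAR enzymes, was at -0.13 ± 0.11 per the authors' deposited table. Wwp2, a ubiquitin ligase that acts on ADAR2, was at -0.01 ± 0.14 per the authors' deposited table.

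A list of 22 other recoded mRNAs showed which substrates were present at all. The 4 genes Gabra3, Htr2c, Cadps and Nova1, expressed mainly in neurons, had a mean of 0, and 7 more had a mean below 10, among them the glutamate receptor genes Gria2 (0.261), Gria4 (0.235), Grik1 (1.04) and Grik2 (0.469) per the authors' deposited table. The other 11 were measured at a mean of at least 10, and 0 passed, with 6 above and 5 below 0 and a median of 0.00. The highest by mean count included Son, a splicing cofactor, at -0.05 ± 0.08 with a mean of 13957, and Cdk13, a transcription-associated kinase, at -0.03 ± 0.11 with a mean of 2598 per the authors' deposited table. Kif20b, a mitotic kinesin, was at -0.26 ± 0.16 with an unadjusted p of 0.0983, the smallest of the 11, per the authors' deposited table. Neil1, a DNA repair glycosylase, was at 0.07 ± 0.32 with a mean of 188 per the authors' deposited table.

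Markers of CD4 T cells and Th17 cells were abundant, with means of 15286 for Cd4, 5150 for Cd3e and 1756 for Il17a per the authors' deposited table. Neither Th17 cytokine gene passed, but both estimates lay above 0 by more than their SE: Il17a was at 0.70 ± 0.15 (unadjusted p = 2.9e-06, adjusted p = 0.0709) per the authors' deposited table (DESeq2). Il17f was at 1.11 ± 0.53 (unadjusted p = 0.0383) per the authors' deposited table (DESeq2), with an SE 5.22 times that of genes of like mean. The other 5 of these 7 markers lay between -0.19 and 0.12. Because Igfbp7 is best known from vessels and connective tissue, the 6 stromal and endothelial markers were examined beside it. Col3a1 had a mean of 0, and Col1a2, Pdgfra and Cdh5 had means of 0.526, 1.28 and 0.939 per the authors' deposited table. Col1a1 had a mean of 7.43, and Pecam1, which leukocytes also express, had a mean of 192 per the authors' deposited table. Per kb of merged exons Igfbp7 had 321 mean normalized counts and Pecam1, the highest of the 6, had 30.8. Of the other cell types, the B cell markers Cd79a and Ms4a1 had means of 129 and 177, Cd8a had 287, and the myeloid markers Lyz2 and Csf1r had 14.8 and 11.7 per the authors' deposited table. The mast cell markers Kit, Cpa3 and Mcpt4 had means of 66.8, 28.7 and 0.521 per the authors' deposited table. Cpa3 was at -5.66 ± 1.26 (unadjusted p = 7.23e-06, adjusted p = 0.0709) per the authors' deposited table (DESeq2), and did not pass, while Kit was at 0.03 ± 0.54 per the authors' deposited table. Their part in the substrates' values was not tested.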

How the data were processed

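RNA of 4 mouse Th17 cultures was sequenced, and 1 table was used. Per the submitters' processing notes the tools were STAR 2.6.1a, featureCounts and DESeq2 1.18.1 with mm10; the annotation, strand setting and model formula were not stated in the sources used here. Per the file headers, the authors deposited a mean signal (counts after size-factor scaling), a log2 fold change with its SE, the Wald score, and the p-value and adjusted p-value. The deposited statistic equalled the fold change over its SE, and the adjusted p a Benjamini-Hochberg adjustment over 29383 genes. The table held 4 further columns, 1 per library, with names that match no sample label; they were not used, so depth per library was not used, no refit was made, and all p-values are the authors' DESeq2 values. The p-values refer to these cultures only and rest on the deposited SEs. For the substrates those SEs were close to the SEs of genes of like mean. How far the SEs reflect each gene's own spread between cultures could not be checked, since values per culture were not used. Whether the authors' model took the pairing by donor into account is also not known.

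Gene identifiers all matched GENCODE M21, which gave symbols, positions, exons and transcript sequences. Intervals are the estimate ± 1.96 SE. Adjustment and trend removal (Python 3.11.15, NumPy 2.4.6, SciPy 1.17.1) were tested on simulated data. Groups come from the titles. Named genes were all 9 substrates, the 3 deaminases, up to 4 most abundant genes per pathway list, and overlapping genes; further examples were chosen after their values were seen. The members, lists and alternatives were chosen with earlier results of these data known. Alternatives changed the genes adjusted over, the threshold, the centring, and GC content and length. Some genes of the lists and 1 sequence are not reported here.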

Additional observations from a re-analysis of the deposited data

How the results depend on the processing

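The count of substrates past the threshold was 0 under all 7 alternatives run. In these, the p-values were adjusted over genes of mean 10 or more, over genes of mean 50 or more, or over protein-coding genes (this last chosen after seeing the data). The others were adjusted p below 0.1 or 0.01, centring on the median, and removal of a trend on GC content and length. Over all genes, where 0 passed in the main result, 3 passed with the adjustment at mean 10 or more, 2 at mean 50 or more, 1 over protein-coding genes, 3 at adjusted p below 0.1, 0 at 0.01, and 3 each with centring and with the trend removed. Il17a and Cpa3, each at an adjusted p of 0.0709 (DESeq2), were among the 3 genes at adjusted p below 0.1. Of 18 alternative values of single substrates, 16 kept their sign. Removal of that trend turned Azin1 to 0.0427 and Cog3 to 0.0008 on the log2 scale, giving 6 above and 3 below 0 where 52.1% of all genes were above 0. The largest move of any substrate was 0.648 of its SE (Azin1). No paired analysis was possible because no library column could be tied to a sample. Refits with DESeq2 or edgeR, other normalizations and filters, and omission of each culture were not run for that reason. The deposited SE limits what was detectable.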
